A study of Caenorhabditis elegans with 12 samples.

Results

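The cuticlins and their relatives are the non-collagen building blocks of the worm cuticle, and they were taken here as every entry of the expression table whose gene name starts with cut-, cutl- or noah-. These were 40 of 46217 gene identifiers, at 37 of 30374 loci. They comprise 6 cut- genes, 29 cutl- (cuticlin-like) genes and 2 noah- genes. The remaining 3 identifiers, the piRNAs 21ur-11897 (at noah-2) and 21ur-14700 (at cutl-1) and the gene shc-1 (joined with cutl-20), repeat the value of the cuticlin entry they share a locus with, so results are given for 37 genes unless identifiers are named.

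RNA from whole Caenorhabditis elegans hermaphrodites, collected at day 1 of adulthood after growth at the same temperature, was sequenced in 12 samples of 4 strains with 3 samples each, to compare worms with and without the exo-RNAi Argonaute RDE-1 while a misfolded protein loads the endoplasmic reticulum. Values of 3 strains were used. Wild type is the N2 strain. The cpl-1* strain carries the integrated array hhIs113, in which the nhx-2 promoter, active in the intestine, drives a misfolded, fluorescently tagged form of the protease CPL-1, a relative of cathepsin L. The rde-1(ne219); cpl-1* strain, called the double strain below, carries an array of the same name together with rde-1(ne219), which disables that Argonaute. The genotype labels of these strains disagree on a substitution in CPL-1, on the fluorescent tag and on a pharyngeal mCherry marker that is listed for the double strain, although the tag is the same in both source labels. Each integrated array is 1 insertion line. The fourth strain, cpl-1WT, was not analysed here.

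The values are FPKM, a fragment count scaled to transcript length and to the mapped fragments of the library, and the authors pooled the 3 samples of each strain into 1 value per gene. The spread between replicates and the depth are therefore unknown. No test was made, and no difference below is called statistically significant. A 2-fold difference serves as a descriptive limit throughout. In whole worms, fewer cells of a type and less RNA per cell cannot be told apart. All 9 markers of intestine, muscle, pharynx, neurons and germ line that were looked up were detected in every strain, from 9.67 FPKM upwards. Of these 9, 6 were highest in the double strain, as were 50.5% of all 20377 loci with a value above 0. Where 3 values follow a gene name below, they are for wild type, cpl-1* and the double strain, in this order. The level of rde-1 was 28.3, 28.0 and 19.3 FPKM, which does not check the genotype, since the allele need not alter the mRNA level. That of cpl-1, in which native and transgenic reads may be counted together, was 1377, 2920 and 9749 FPKM, and was thus higher in both strains that carry the array.

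The cuticle is secreted by the epidermis and rebuilt at each molt. Collagens form most of it, and cuticlins form part of the insoluble remainder in the cortical layer and in the alae, the lateral ridges. Most cuticlins carry a zona pellucida (ZP) domain, a module with which secreted proteins polymerize into filaments. ZP proteins are usually made with a membrane anchor and are released by cleavage. Of the 37 genes, 30 carried the annotation integral component of membrane in the table, and 5 (noah-1, noah-2, cutl-17, cutl-18 and cutl-27) carried cuticle development. Cuticlin transcription peaks around molts in larvae, and adults no longer molt. The gene models ranged from 215 to 1052 codons, with 2 to 16 exons, and lay on all 6 chromosomes, with 9 of them on chromosome II.

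As a group these mRNAs were scarce in wild type, a little more abundant in cpl-1* and several times more abundant in the double strain. The summed level of the 37 genes was 62.5 FPKM in wild type, and it was 120.4 FPKM with cpl-1* alone and 649.5 FPKM in the double strain. At least 1 FPKM was reached by 12 genes in wild type, by 17 in cpl-1* and by 27 in the double strain. The share of all loci at that level was not counted, but ranks among all loci bracket their number. In wild type, cutl-18 at 1.20 FPKM ranked 12157th and cutl-3 at 0.964 FPKM 12635th. In cpl-1*, cutl-23 at 1.06 FPKM ranked 13369th and cutl-2 at 0.870 FPKM 13842nd. In the double strain, cutl-25 at 1.03 FPKM ranked 14305th and cutl-4 at 0.989 FPKM 14384th. More loci of any kind thus reached 1 FPKM in cpl-1*, and more again in the double strain. Loci with a value above 0 numbered 18848, 19173 and 19540 in these strains. The median gene had 0.708, 0.710 and 2.70 FPKM. The double strain held the highest of the 3 values for 32 of the 37 genes (86.5%), where 50.5% of all 20377 loci with a value above 0 did so. Of the others, cut-1, cutl-2 and cutl-25 were highest in wild type, and cut-3 and cutl-13 in cpl-1*.

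**Figure D1:**
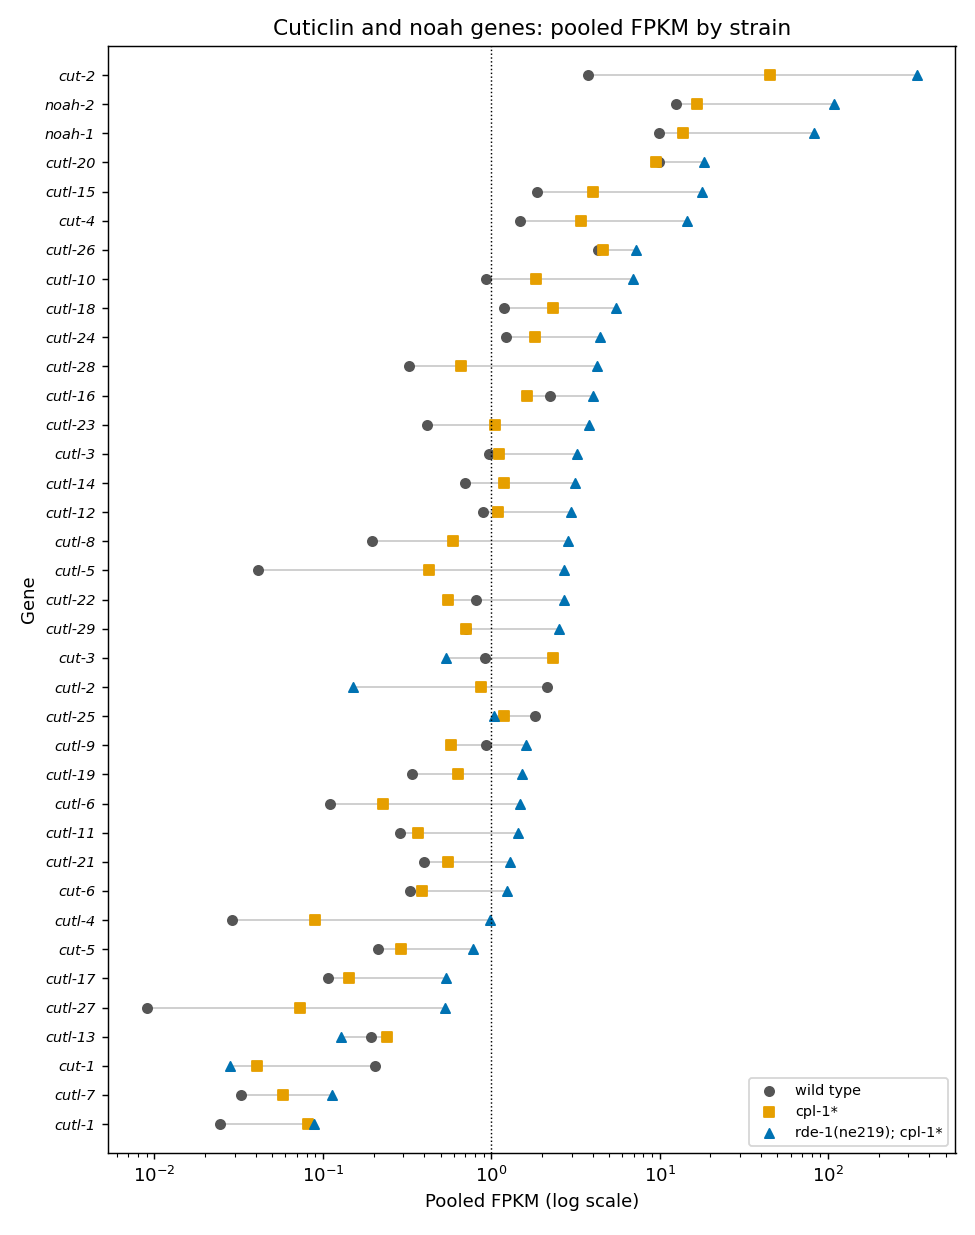
Pooled FPKM on a log axis for each of the 37 cuticlin and noah genes, 1 row per gene, with a circle for wild type, a square for cpl-1* and a triangle for the double strain; the dotted line marks 1 FPKM, and there are no error bars since each point is 1 pooled value. The triangle lies furthest to the right for 32 genes, and cut-2 reaches the highest value of all, 338 FPKM.

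The largest level belonged to cut-2, a cuticlin of the cortical layer that is built of short repeats. The gene (WBcel235, chromosome V, 13414949 to 13416064, plus strand) has 2 exons and 215 codons, the shortest model of the group. Its level was 3.78, 45.3 and 338 FPKM. The strains were thus in the same order at both steps, at 12-fold the wild-type level in cpl-1* and 7.45-fold the cpl-1* level in the double strain. Among all loci, cut-2 ranked 9601st by FPKM in wild type, 3698th in cpl-1* and 397th in the double strain. On the log2 scale of FPKM + 1, used below so that very low values do not dominate, the difference between the double strain and cpl-1* was 2.87, and 91 of 15727 identifiers had a larger one. The deposited locus of cut-2 reaches 1587 bases past the annotated gene and includes F53F1.6 on the other strand, which has values of its own at 4.00, 3.07 and 5.24 FPKM.

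The genes noah-1 and noah-2 encode ZP proteins related to Drosophila NompA, which attach the epidermis to its matrix and are needed for embryos to elongate. For noah-1, on chromosome I from 5874416 to 5878958 (minus strand, 1052 codons), the levels were 9.93, 13.8 and 83.0 FPKM. For noah-2, on chromosome IV from 14091254 to 14096626 (plus strand, 741 codons), they were 12.5, 16.6 and 108 FPKM. The values of these genes lay close together in each strain although the loci are on different chromosomes. In cpl-1* they were 1.39-fold and 1.33-fold the wild-type level, and in the double strain 6.02-fold and 6.51-fold the cpl-1* level. Unlike cut-2, the noah genes therefore differed by less than 2-fold between cpl-1* and wild type.

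Together these 3 genes made up 41.9% of the summed FPKM of the group in wild type, 62.9% in cpl-1* and 81.4% in the double strain. The share of cut-2 alone was 6.04%, 37.6% and 52.0%. Over the other 34 genes the sum was 36.3, 44.7 and 121 FPKM. The ratio of the sums between the double strain and cpl-1* was 5.39 with these 3 genes and 2.70 without them. They were the most abundant in cpl-1* and in the double strain but not in wild type. Since genes with high values in the double strain were left out, the lower ratio follows in part from that choice.

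**Figure D2:**
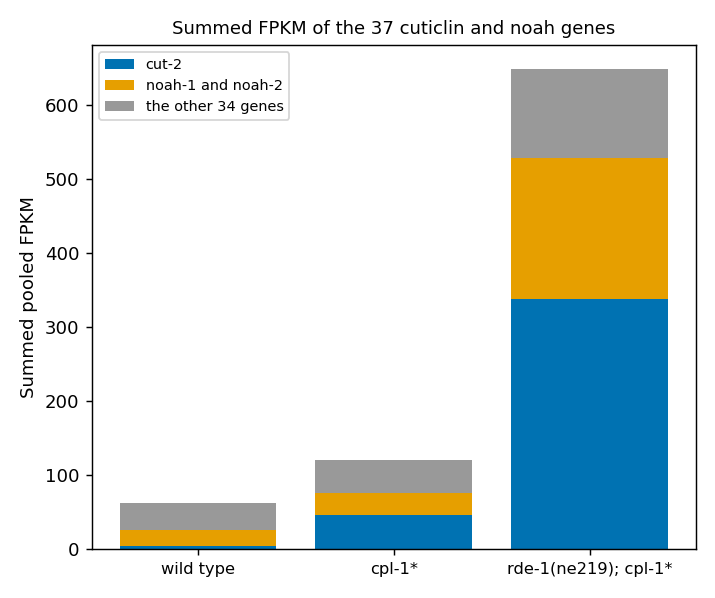
Summed pooled FPKM of the 37 genes in each strain as stacked bars from 0, divided into cut-2, noah-1 with noah-2, and the other 34 genes; no error bars can be given. The bars reach 62.5, 120.4 and 649.5 FPKM, and cut-2 makes up 52.0% of the last.

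The ZP cuticlins cut-1, cut-3, cut-5 and cut-6 are known for the alae of L1 or dauer larvae, and all were scarce here. The table listed cut-3, which is needed for the alae of the first larval stage, at 0.918, 2.33 and 0.536 FPKM. It was the only cut- gene that was highest in cpl-1*. The deposited locus of cut-3 reaches 862 bases past the annotated gene and includes evl-20 on the other strand. That gene is more abundant and also lowest in the double strain, at 43.5, 42.3 and 27.0 FPKM. For cut-6, annotated with alae and known from dauer larvae, the values were 0.331, 0.387 and 1.24 FPKM. Those of cut-5, which acts in both L1 and dauer alae, stayed below 1 FPKM at 0.213, 0.289 and 0.785. Its locus overlaps idpa-3 on the other strand, listed in the table as R07E3.2 at 0.902, 2.43 and 17.7 FPKM and named here after its values had been seen. The sources used here do not say whether reads were counted by strand. The dauer cuticlin cut-1 was nearly absent, with 0.205, 0.0404 and 0.0281 FPKM, and was lowest in the double strain. The listed values of the larval alae genes therefore did not share 1 pattern. At such low pooled values, whether their patterns differ was not tested. A further member, cut-4, had 1.48, 3.43 and 14.5 FPKM, a 2.32-fold step from wild type to cpl-1* and a 4.24-fold step from there to the double strain.

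Among the 29 cutl- genes, 8 reached 1 FPKM in wild type and 22 in the double strain, and 5 reached 5 FPKM there. These 5 were cutl-20, cutl-15, cutl-26, cutl-10 and cutl-18. As above, the share of all loci at these limits was not counted, and more loci of any kind reached 1 FPKM in the double strain than in wild type. The entry of cutl-20 is joined with that of the adaptor gene shc-1, so its 9.95, 9.46 and 18.5 FPKM belong to both genes. For cutl-15 the levels were 1.86, 4.05 and 17.8 FPKM. This is the widest separation of the 5, at 2.17-fold between cpl-1* and wild type and 4.41-fold between the double strain and cpl-1*. The levels of cutl-26 were 4.32, 4.61 and 7.20 FPKM, those of cutl-10 were 0.927, 1.84 and 6.91 FPKM, and those of cutl-18 were 1.20, 2.34 and 5.48 FPKM. Between the double strain and cpl-1*, cutl-26 (1.56-fold) and cutl-20 (1.95-fold) stayed under 2-fold, while cutl-10 (3.75-fold) and cutl-18 (2.34-fold) did not.

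A further 11 cutl- genes had between 2.54 and 4.44 FPKM in the double strain, and 5 of them were below 1 FPKM in cpl-1*. They are grouped by their level in the double strain, so no count of higher genes is drawn from them. Those with the largest separation were cutl-28 (0.324, 0.660 and 4.22 FPKM), cutl-5 (0.0412, 0.426 and 2.71 FPKM), cutl-22 (0.810, 0.557 and 2.70 FPKM) and cutl-8 (0.197, 0.597 and 2.85 FPKM). Their ratios between the double strain and cpl-1* ranged from 4.78 for cutl-8 to 6.40 for cutl-28. For cutl-23 the levels were 0.414, 1.06 and 3.79 FPKM, for cutl-29 0.708, 0.710 and 2.54 FPKM, and for cutl-3 0.964, 1.11 and 3.22 FPKM. In this group cutl-29 had practically the same value in wild type and cpl-1*. Those of cutl-12 were 0.889, 1.09 and 2.98 FPKM, those of cutl-14 were 0.697, 1.19 and 3.14 FPKM, and those of cutl-24 were 1.22, 1.81 and 4.44 FPKM. For cutl-16, with 2.22, 1.63 and 4.02 FPKM, cpl-1* was the lowest strain, as it was for cutl-22.

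Between 1 and 2 FPKM in the double strain lay 6 cutl- genes, grouped in the same way. The levels were 0.339, 0.634 and 1.53 FPKM for cutl-19, 0.111, 0.229 and 1.47 FPKM for cutl-6, and 0.286, 0.367 and 1.45 FPKM for cutl-11. They were 0.398, 0.556 and 1.3 FPKM for cutl-21 and 0.927, 0.580 and 1.60 FPKM for cutl-9. Unlike these, cutl-25 was highest in wild type, with 1.83, 1.20 and 1.03 FPKM. The clearest case of a lower level in the double strain was cutl-2, with 2.14, 0.870 and 0.151 FPKM. The 6 cutl- genes that stayed below 1 FPKM in every strain were cutl-4, cutl-17, cutl-27, cutl-13, cutl-7 and cutl-1. Of these, cutl-4 came closest to that limit, with 0.0287, 0.0901 and 0.989 FPKM, and cutl-27 had the lowest value of all genes, 0.00898 FPKM in wild type. Ratios between such low values are imprecise to an unknown degree.

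Lying close together on a chromosome did not go with like levels in the closest pair. This pair was cutl-1 and cut-2, 8834 bases apart on chromosome V, with 0.0891 and 338 FPKM in the double strain. The next pair, cutl-28 and cutl-26, 10358 bases apart on chromosome IV, had 4.22 and 7.20 FPKM there. In the current annotation 11 of the 37 deposited loci also hold another protein-coding gene. For 10 of them the other genes have values of their own in the table, and 11 of these 12 other genes lie on the opposite strand. Some of these are more abundant than the cuticlin and differ the other way between strains, such as T21B10.4 opposite cutl-15, with 82.4, 78.3 and 46.9 FPKM, and F10E7.6 opposite cutl-5, with 70.2, 65.7 and 44.4 FPKM. Others are also more abundant but rank the strains in the same order as the cuticlin. They include T03F7.7 opposite cutl-18, with 10.2, 14.4 and 23.2 FPKM, and cpin-1 opposite cutl-17, with 7.73, 8.88 and 9.99 FPKM. The part of such neighbours in the cuticlin values was not tested. Reads of members with similar sequences could be split between them, which was not examined here.

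Compared with wild type, cpl-1* worms had moderately higher levels of some cuticlins. On plain FPKM, in which no member was listed at 0, 12 of the 37 genes (32.4%) were at least 2-fold higher in cpl-1*, against 17.3% of all 18263 loci above 0 in both strains, and 2 (cut-1 and cutl-2) were at least 2-fold lower, against 4.80%. The median gene was at 1.39-fold, and the median locus overall at 0.983-fold. Of these 12 genes, only cut-2, cut-4, cut-3, cutl-15 and cutl-23 reached 1 FPKM in cpl-1*, and the remaining 7 were below it in both strains. On FPKM + 1 with a minimum of 1 FPKM in 1 of the 2 strains, which 20 of the 40 identifiers met, cut-2 was the only one at least 2-fold higher (log2 difference 3.28) and none was lower. The background for that count was 10% of 14583 identifiers higher and 1.46% lower.

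Compared with cpl-1*, the double strain had higher levels of most cuticlins. On plain FPKM, 28 of the 37 genes (75.7%) were at least 2-fold higher and 2 (cut-3 and cutl-2) at least 2-fold lower, against 28.6% and 14.5% of 18599 loci. Most of these 28 genes were below 1 FPKM in cpl-1*, and cutl-4, cut-5, cutl-17 and cutl-27 were below it in both strains. The median gene was at 2.92-fold, and the median locus overall at 1.17-fold. The ratios ran from 0.173 for cutl-2 to 11 for cutl-4, which rests on 0.0901 FPKM in cpl-1*. On FPKM + 1, 30 of the 40 identifiers met the minimum, some of them only through their value in the double strain. Of these 30, 15 were at least 2-fold higher and 1 (cut-3) was lower, where 19.6% and 11.3% of 15727 identifiers were. Counting each locus once gave 14 and 1, and 6 of these 14 genes were below 1 FPKM in cpl-1*, so that they met the minimum only through the double strain. The median log2 difference of the 30 member identifiers was 0.98, beside 0.14 over all identifiers kept. Relative to that overall shift, 12 identifiers were at least 2-fold higher and 1 was lower, against 15.4% and 15.1% of all. At 4-fold on this scale there remained cut-2, noah-1 and noah-2, the last under 2 identifiers, and none was lower, against 3.83% and 2.02% of all.

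**Figure D3:**
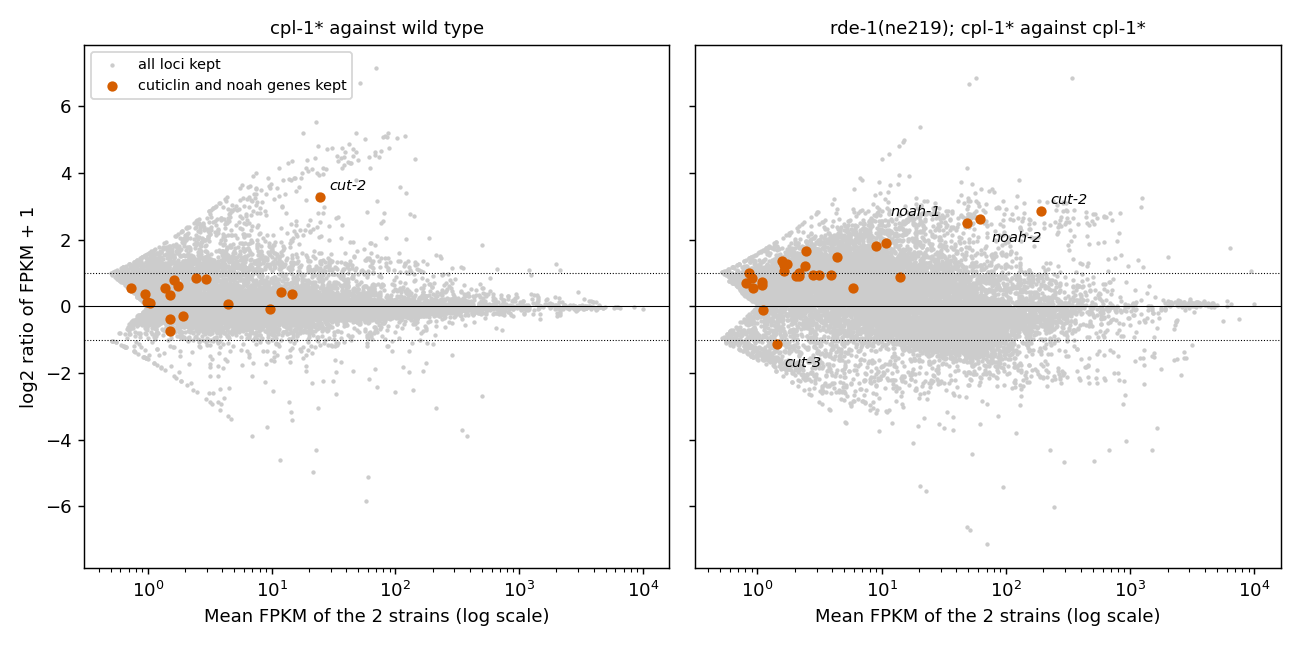
Log2 ratio of FPKM + 1 (vertical axis) against the mean FPKM of the 2 strains (horizontal log axis) for all loci with at least 1 FPKM in 1 of the 2 strains (grey) and for the cuticlin and noah genes among them (orange); dotted lines mark 2-fold. On the left (cpl-1* against wild type) cut-2 stands alone at 3.28, and on the right (double strain against cpl-1*) cut-2, noah-2 and noah-1 stand at 2.87, 2.63 and 2.51 and cut-3 at -1.11.

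The comparison of the double strain with wild type uses the same values again and adds no independent measurement. There, 28 of the 37 genes were at least 2-fold higher and 2 (cut-1 and cutl-2) lower on plain FPKM, against 33.3% and 17.8% of 18293 loci, and the median gene was at 3.75-fold. On FPKM + 1, 19 of 30 identifiers were higher and 1 was lower, against 26.5% and 15.9% of 15831 identifiers. By locus, 18 genes were higher, of which 11 were below 1 FPKM in wild type and met the minimum only through the double strain. The median over all identifiers kept was 0.11 on the log2 scale, and relative to it 15 were higher and 1 was lower, against 24.1% and 19.2% of all. The widest separations were those of cut-2 (89.4-fold), cutl-5 (65.6-fold) and cutl-27 (59.0-fold), of which cutl-5 and cutl-27 rest on wild-type values below 0.05 FPKM.

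ZP genes outside these names and other proteins of the early cuticle were examined beside them, from short lists drawn up with earlier results known. The counts of these and of all later lists stand beside the same backgrounds. Between the double strain and cpl-1* these were 19.6% higher and 11.3% lower, with a median log2 difference of 0.14 over all identifiers kept. On plain FPKM that background was 28.6% and 14.5%. For cpl-1* against wild type it was 10% and 1.46% on FPKM + 1, with an overall median of -0.043, and 17.3% and 4.80% on plain FPKM. All 4 further ZP genes were highest in the double strain, where 50.5% of all 20377 loci with a value above 0 were. The level of let-653, a ZP protein that shapes epithelial tubes, was 3.43, 3.72 and 14.2 FPKM. That of fbn-1, a fibrillin-like ZP protein of the embryonic sheath, was 1.28, 0.883 and 6.65 FPKM. For dyf-7, which anchors growing dendrites, it was 1.36, 1.72 and 4.05 FPKM, and for ram-5, known from the rays of the male tail, 0.101, 0.173 and 1.01 FPKM. On plain FPKM all 4 were at least 2-fold higher in the double strain than in cpl-1*. On FPKM + 1, 2 of the 4 (let-653 and fbn-1) were so, and none of the 3 that could be counted was so in cpl-1* against wild type. Like the noah genes, let-653 and fbn-1 thus differed mainly between the double strain and the others. The median log2 difference of the 4 between the double strain and cpl-1* was 1.29.

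Of 6 proteins that line the precuticle together with ZP proteins, 4 were at least 2-fold higher in the double strain than in cpl-1* and 1 was lower, on either scale. The lipocalins lpr-3 (3.92, 12.6 and 110 FPKM) and lpr-1 (0.610, 1.76 and 13.9 FPKM) and the leucine-rich repeat genes sym-1 (10.96, 12.8 and 92.1 FPKM) and let-4 (1.72, 2.12 and 13.5 FPKM) were the higher ones. The lower one was egg-6, a further leucine-rich repeat gene, with 130, 122 and 37.5 FPKM. For dex-1, whose product acts in dendrite extension, the levels were 2.18, 2.40 and 4.59 FPKM. The median log2 difference of the 6 was 2.33. Between cpl-1* and wild type, lpr-3 alone was past 2-fold on FPKM + 1, and lpr-1 also on plain FPKM (2.88-fold).

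Most molting genes differed in the same direction as the cuticlins. Of 11 such genes, 6 were at least 2-fold above wild type in cpl-1* on FPKM + 1 and 8 were so above cpl-1* in the double strain, with none lower in either. Of all identifiers kept, 10% and 19.6% were higher in these comparisons. On plain FPKM the counts of molting genes were 8 and 9, beside 17.3% and 28.6% of all loci. Their summed level was 74.0, 141 and 641 FPKM, none was at 0, and their median log2 difference was 1.47 at the first step and 2.53 at the second. The hedgehog-related gene qua-1 had 0.498, 5.09 and 40.2 FPKM, and lin-42, the period-like gene that times molts, had 3.19, 17.3 and 111 FPKM. The nuclear receptor gene nhr-23, which drives molting transcription, did not share this pattern, with 33.8, 32.5 and 28.4 FPKM. On FPKM + 1, nhr-25 (3.45, 2.09 and 4.18 FPKM) and nas-37 (18.0, 16.7 and 30.9 FPKM) also stayed under 2-fold at both steps. Of 4 collagens of the adult cuticle, the strut collagens bli-1 (0.288, 10.8 and 75.8 FPKM) and bli-2 (0.398, 26.8 and 217 FPKM) and col-7 were at least 2-fold higher in both comparisons. The adult-specific collagen col-19 was lower in the double strain, at 1714, 1837 and 745 FPKM. The summed level of these 4 was 1719, 1902 and 1100 FPKM, and their median log2 difference between the double strain and cpl-1* was 1.94.

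The markers of the epidermis, which makes the cuticle, did not all differ between the double strain and cpl-1* by 2-fold. Of 6 such genes, 2 (che-14 and the furrow collagen dpy-7) were at least 2-fold higher on FPKM + 1, and none was lower or at 0. Of all identifiers kept, 19.6% were higher. On plain FPKM there were 3, beside 28.6% of all loci, with rdy-2 (0.586, 0.853 and 2.48 FPKM) at 2.91-fold. Over so few genes these counts are not far above the background. The transcription factor genes elt-3 (18.9, 20.8 and 29.6 FPKM), elt-1 (13.2, 8.85 and 7.58 FPKM) and lin-26 (145, 125 and 81.7 FPKM, joined with lir-1) stayed within 2-fold between these strains. The summed level of the 6 genes was 181, 167 and 221 FPKM, and their median log2 difference between the double strain and cpl-1* was 0.70.

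Oocyte, yolk and embryo genes differed in the opposite direction between the double strain and cpl-1*. On FPKM + 1, 11.3% of all identifiers kept were lower there, and on plain FPKM 14.5% of all loci. Of 14 oocyte and eggshell genes, 13 were at least 2-fold lower in the double strain (all but chs-1, joined with T25G3.3), with a summed level of 8296, 7926 and 1882 FPKM. The vitellogenins, yolk protein genes that are transcribed in the adult intestine, were lower in all 6 cases, with sums of 9594, 9580 and 567 FPKM. Of 8 genes that are switched on in early embryos, all 8 were at least 2-fold lower on plain FPKM, and 4 of the 6 that met the minimum on FPKM + 1, with sums of 21.0, 15.1 and 1.19 FPKM, and tbx-35 was listed at 0 in the double strain. Between cpl-1* and wild type, no gene of these 3 lists that could be counted was past 2-fold, on FPKM + 1. The median log2 difference between the double strain and cpl-1* was -2.11 for the oocyte and eggshell genes, -4.31 for the vitellogenins and -1.23 for the embryo genes. Germline genes that are not specific to oocytes stayed within 2-fold, with 204, 215 and 183 FPKM for glh-1 and 220, 214 and 140 FPKM for pgl-1. Of the intestinal genes, elt-2 was 2.33-fold higher in the double strain than in cpl-1*, ges-1 1.67-fold and the transgene promoter's own gene nhx-2 1.296-fold. The muscle and pharynx genes unc-54, myo-3 and myo-2 were 1.59-fold, 1.86-fold and 1.91-fold higher, and the neuronal gene snb-1 was at 0.976-fold. Over these 9 tissue genes the summed level was 1056, 1214 and 1468 FPKM, none was at 0, and the median log2 difference between the double strain and cpl-1* was 0.67. The part of molting, of the epidermis, of other tissues, of the stage of the worms and of their germ line and embryo content in the cuticlin levels was not tested, and with pooled values no strain could be examined sample by sample.

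**Figure D4:**
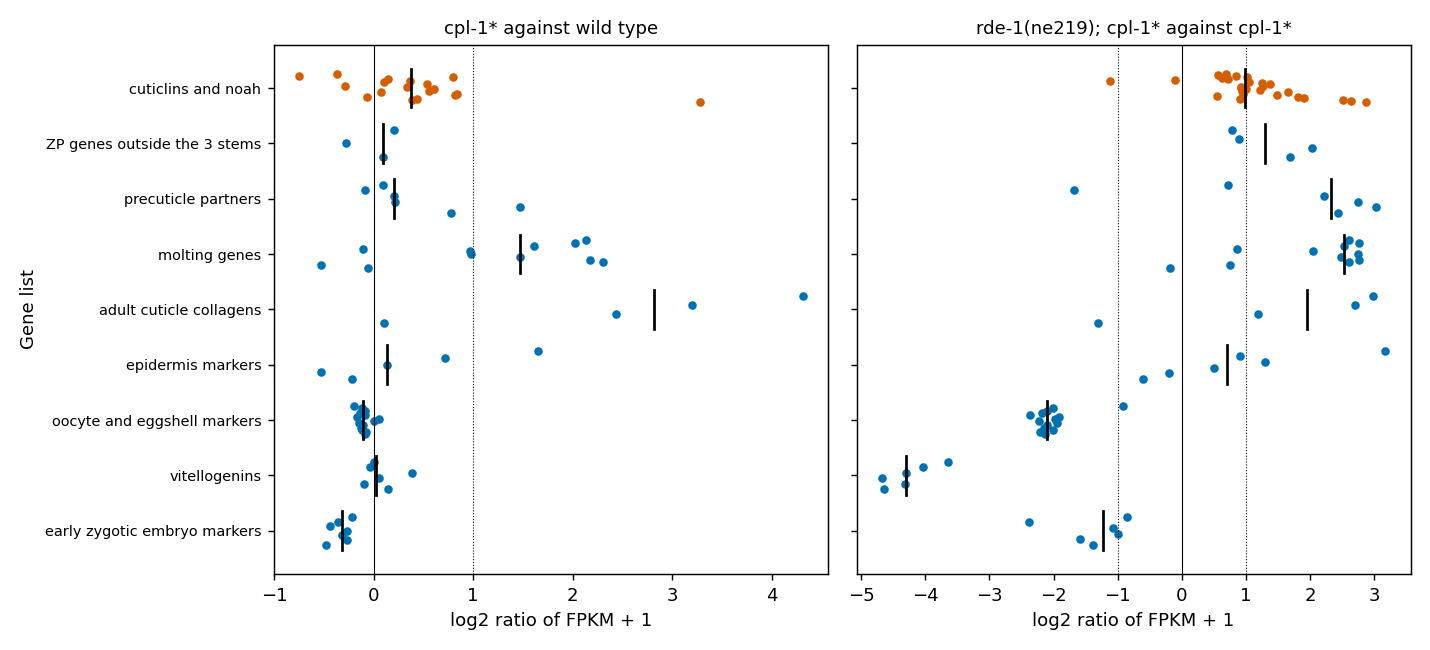
Log2 ratio of FPKM + 1 (horizontal axis) of each gene with at least 1 FPKM in 1 of the 2 strains, by gene list, for cpl-1* against wild type (left) and the double strain against cpl-1* (right); black bars are list medians, dotted lines mark 2-fold, and the axes of the panels differ. On the right the molting genes have a median of 2.53 and the vitellogenins one of -4.31.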

How the data were processed

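Total RNA of 12 whole-worm samples was sequenced. According to the paper's methods, the authors used HISAT2 for mapping against the Ensembl release 91 transcriptome, StringTie for assembly and Cufflinks for quantification. The submitters' processing notes list FastQC 0.11.7, HISAT2 2.1.0, StringTie 1.3.4d, Cuffdiff 2.2.1 and WBcel235. The deposited values are FPKM, 1 pooled value per gene for each of the 3 strains. The table also holds the authors' fold changes, test statistics, p-values, q-values and flags, which were not used. Pooling hides any replicate that stands apart, and the depth per sample is unknown.

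The table has 138654 rows for 3 comparisons. The values of a strain were the same in all its rows, and 1 identifier with a repeated entry was used by its first. Log2 ratios are of FPKM + 1 among identifiers with at least 1 FPKM in 1 of the 2 strains, where ratios of low genes are understated. Plain FPKM ratios of all genes are given beside them, a choice made after the data were seen, with identifiers of the same locus and values counted once. Fits over replicates would need values per sample, so none was made. Positions follow WBcel235 as annotated in Ensembl release 115. Sequences were not analysed here. FPKM of every strain is given for each member with at least 1 FPKM in 1 strain. The genes idpa-3, evl-20, F53F1.6, T21B10.4, F10E7.6, T03F7.7 and cpin-1 and the neighbouring pairs were picked after their values had been seen. The members and the gene lists were chosen with earlier results of these data known. Alternatives were pseudocounts of 0.1 and 0, minimums of 0 and 5 FPKM, folds of 1.5 and 4, centring on the median, and counting shared values once. The scripts (Python 3.11.15, pandas 2.3.3, numpy 2.4.6, matplotlib 3.10.9) were tested on simulated 4-fold changes among genes at 10 FPKM or more in cpl-1*. Only 3 of the 37 genes reach that level in cpl-1*, so this check does not cover low values.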

Additional observations from a re-analysis of the deposited data

How the results depend on the processing

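No paired analysis was possible because the table holds 1 pooled value per strain, and replicates could not be left out for the same reason. A value is given here where it moved by over 1.5 times, and no median log2 ratio of the members changed sign under any of these alternatives. Counts are of identifiers higher and lower by at least 2-fold unless stated, and the percentages are the shares of all identifiers higher under the same setting. For cpl-1* against wild type, 1 was higher and 0 lower (10%). Pseudocounts of 0.1 (14.3%) and 0 (14.3%), and a 1.5-fold limit (16.6%), each gave 5 and 1, and plain FPKM with no minimum, chosen after seeing the data, gave 13 and 2 (17.1%). For the double strain against cpl-1*, 15 were higher and 1 lower (19.6%), with a median of 0.98. The number higher was 25 with a pseudocount of 0.1 (median 1.59, 26.5%) and 25 with none (median 1.76, 27.0%), 26 at 1.5-fold (34.8%), and 29 with 2 lower on plain FPKM with no minimum (28.5%). It was 7 with 0 lower at a minimum of 5 FPKM (median 1.81, 19.8%), and 4 with 0 lower at 4-fold (3.83%). For the double strain against wild type, 19 were higher and 1 lower (26.5%), with a median of 1.13. The median was 1.95 with a pseudocount of 0.1 and 2.17 with none. At a minimum of 5 FPKM there were 8 and 0 (median 2.65, 25.3%), at 4-fold 7 and 0 (11.5%), and on plain FPKM with no minimum 30 and 2 (median 1.90, 33.3%). Pseudocounts act most on low genes, and most members are below 5 FPKM. Pooled values without depth limit how far such low levels can be told apart.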
